A study of Mus musculus with 9 samples.

Results

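Ephrins and their Eph receptors are cell-surface proteins that signal where cells touch. The 10 genes described here are the rows of the deposited expression table named Epha3, Epha4, Epha7, Ephb2 and Ephb3 (5 receptors) and Efna1, Efna2, Efna5, Efnb1 and Efnb2 (5 ephrins), chosen by symbol from 24102 rows. The table holds 22 Eph receptor and ephrin genes in all, and the 12 others serve as the comparison. The values come from cells of mouse limbs at E12.5, dissociated and sorted for GFP. Controls had the genotype Shox2(Cre/+);Rosa(mTmG), and mutants Shox2(Cre/-);Rosa(mTmG). Both groups thus carry the Rosa(mTmG) reporter, in which Cre turns off membrane-bound tdTomato and turns on membrane-bound GFP, and both have Cre at 1 allele of Shox2, a homeobox gene of the proximal limb. The controls are therefore not wild type. Sorted green cells are those that made Cre or descend from such cells, and the labels do not say how the mutant allele was made or how many embryos were pooled. The labels name 3 control and 4 mutant samples, 2 of the mutants in litter 1, and 2 WT whole limbs, which were not analysed here. The table used has 1 control and 1 mutant column for each of litters 1, 2 and 3, so n = 3 columns per group throughout.

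Eph proteins are receptor tyrosine kinases. EphA receptors mostly bind ephrin-A proteins, which are tied to the membrane by a lipid anchor, and EphB receptors mostly bind ephrin-B proteins, which span the membrane, while EphA4 binds ligands of both kinds. Contact often leads to repulsion, and signals can run into the receptor cell and into the ephrin cell. In the limb these proteins are known for keeping unlike mesenchymal cells apart during skeletal patterning and for steering motor axons into the dorsal or the ventral muscle mass.

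The 2 members whose control and mutant values lay farthest apart in log2 units were the receptors Epha3 and Epha7, and Epha5, a close relative outside the 10, differed in the same direction. The 250 bases before the RefSeq transcription start of these 3 genes (build GRCm38.p6) are shown because these genes were higher in the mutants of all 3 litters and Shox2 encodes a DNA-binding homeodomain protein. Capitals mark the 4 letters TAAT on either strand (ATTA on the other), a core that many homeodomain proteins bind.
Epha3, chr16:63864176-63864425, minus strand: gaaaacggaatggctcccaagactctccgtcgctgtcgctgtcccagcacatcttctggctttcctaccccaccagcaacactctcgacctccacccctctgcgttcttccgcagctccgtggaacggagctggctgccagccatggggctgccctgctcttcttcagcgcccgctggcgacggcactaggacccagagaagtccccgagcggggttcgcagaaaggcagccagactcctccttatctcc
Epha5, chr5:84417383-84417632, minus strand: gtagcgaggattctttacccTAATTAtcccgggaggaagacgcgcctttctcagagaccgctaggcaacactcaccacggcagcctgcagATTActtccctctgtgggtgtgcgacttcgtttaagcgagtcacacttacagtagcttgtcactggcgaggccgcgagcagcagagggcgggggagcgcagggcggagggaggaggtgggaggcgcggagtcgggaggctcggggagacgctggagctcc
Epha7, chr4:28812881-28813130, plus strand, the more upstream of 2 starts: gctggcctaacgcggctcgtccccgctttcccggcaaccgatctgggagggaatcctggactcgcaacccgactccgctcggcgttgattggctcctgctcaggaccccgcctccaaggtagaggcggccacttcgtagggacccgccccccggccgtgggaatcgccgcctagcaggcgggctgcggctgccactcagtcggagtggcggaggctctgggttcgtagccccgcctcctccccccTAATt
The Epha3 window held 0 matches, the Epha7 window 1, starting 5 bases before the start site, and the Epha5 window 3, of which 2 overlap in the palindrome TAATTA. Epha6 and Efnb2 were also higher in the mutants of all 3 litters, and their windows, not shown, held 0 matches. Of the 10 members, all matched the RefSeq table, 3 windows held TAAT (Epha7, Ephb3 and Efna1) and 1 held TAATTA (Efna1). Among 32851 RefSeq windows of the same length, 54.9% held TAAT and 4.84% held TAATTA. A match describes letters only, and distant elements lie outside these windows.

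Shox2, the disrupted gene, was at 217, 222 and 210 FPKM in the controls of litters 1, 2 and 3 and at 16.7, 18.3 and 96.9 FPKM in the mutants. FPKM is a level per transcript length and library size, so levels of different genes can be set side by side. The litter 3 mutant column thus kept a higher Shox2 level than the others. Of 12 limb mesenchyme markers, 11 were found in the table and all of them were tested, with Prrx1 at 106 to 246 FPKM. Tbx5 of the forelimb (46.0 to 64.2 FPKM) and Tbx4 of the hindlimb (34.0 to 49.1 FPKM) were both present. Sums of FPKM per column ran from 347708 to 439109, the depth is unknown, and 12314 rows at 1 FPKM or more in at least 3 columns were tested.

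Among the 10 genes, the smallest unadjusted p-values belonged to Epha3 and Epha7, both higher in the mutant of each litter. In the whole family the smallest was that of Epha5, a receptor gene at a far lower level that passed the filter on low values only with its mutant columns. Its p-value is therefore no support for a direction. Epha4, the member with the highest mean in the controls, and the ephrin genes Efna5 and Efnb1 showed no shared direction. No gene passed the adjusted threshold of 0.05 in limma, neither with all columns exchangeable within a group (0% of 12314 rows) nor with litter as a block (0%), while 439 rows, or 3.57%, were at an unadjusted p under 0.05. The statements on single genes below are therefore values and directions, not calls. In bulk RNA, a higher level per cell and a larger share of cells that make the transcript cannot be told apart.

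Epha3 encodes an EphA receptor that binds ephrin-A5. It was at 41.9, 18.7 and 28.7 FPKM in the controls of litters 1, 2 and 3 and at 60.6, 43.8 and 42.8 FPKM in the mutants. Each mutant column was above each control column, the lowest mutant only just above the highest control, and litter 1 was highest in both groups. The groups averaged 29.8 ± 11.6 and 49.1 ± 10.04 FPKM (SD, n = 3). Within litters 1, 2 and 3 the mutant had 1.45, 2.34 and 1.49 times the control level. The change was 0.76 (SE 0.30) in log2(FPKM + 1), with an unadjusted limma p of 0.0434 and an adjusted p of 1.00. A block for litter gave 0.00186 and 0.151 in limma. A two-sided exact permutation test gave p = 0.1, which 3 columns against 3 cannot go below. Without the litter 2 control column the change was 0.47. After centring each column on its median the groups overlapped.

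Epha7 encodes a receptor whose limb expression depends on Hoxa13 and Hoxd13. It was at 67.0, 33.6 and 41.4 FPKM in the controls and at 102.5, 63.4 and 62.1 FPKM in the mutants of litters 1, 2 and 3. Litter 1 again stood highest, and its control lay above the mutants of litters 2 and 3, so the groups overlapped although each mutant exceeded its own control. The mutant had 1.53, 1.88 and 1.503 times the control level in the 3 litters. The change was 0.69 (SE 0.31) in log2(FPKM + 1), with a limma p of 0.0637 (adjusted p = 1.00). With litter as a block, the limma p was 0.000634 and the adjusted p 0.0998. Without the litter 1 mutant column the change was 0.46. Epha7 is in the deposited list of genes that its file calls directly repressed by Shox2, a list that may rest on these samples.

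Epha4 encodes the receptor that sends lateral motor axons into the dorsal limb and that mesenchyme makes as well. It was at 122.8, 49.2 and 61.8 FPKM in the controls and at 107.3, 61.7 and 58.0 FPKM in the mutants. The litter 1 columns were high in both groups, and mutants were lower in litters 1 and 3 and higher in litter 2. The change was 0.012 (SE 0.39) in log2(FPKM + 1), with a limma p of 0.976, and its sign changed in 5 of 16 alternative analyses. The spread between control litters was larger than any genotype difference within a litter.

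**Figure D1:**
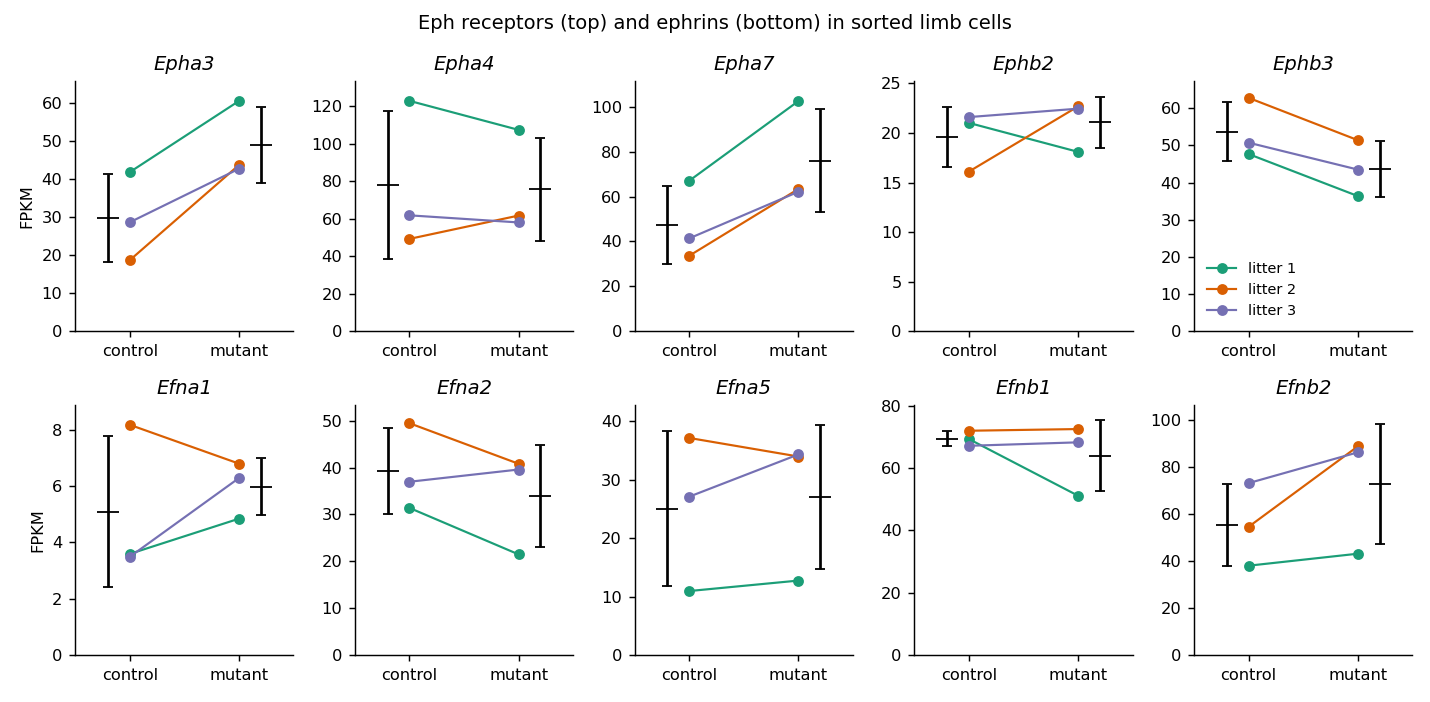
FPKM of the 10 member genes, 1 panel per gene with its own axis from 0. Points are columns, lines join the control and the mutant of a litter, and black bars are means with SD (n = 3). Epha3, Epha7 and Efnb2 were higher in the mutant of each litter, Ephb3 was lower in each, and litter 1 stood apart for Epha4, Epha7 and Efna5.

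Since litter 1 stood highest for all 3 EphA members in both genotypes, their ratio within a column was also taken, a quantity that no scaling of a whole column changes. These ratios were chosen after the values were seen, so their permutation p-values are descriptive and no support for a difference. The ratios and the shares given after them draw on the same rows. Epha7 divided by Epha4 was 0.546, 0.683 and 0.670 in the controls of litters 1, 2 and 3 and 0.956, 1.03 and 1.07 in the mutants. The groups did not overlap, and the gap between them was larger than the spread within either (0.633 ± 0.0756 against 1.02 ± 0.0588, SD, n = 3; exact two-sided permutation p = 0.1, the smallest possible). Epha3 divided by Epha4 was 0.341, 0.380 and 0.464 in the controls and 0.565, 0.710 and 0.738 in the mutants, again without overlap (exact permutation p = 0.1). Epha7 divided by Epha3 was 1.60, 1.80 and 1.44 in the controls and 1.69, 1.45 and 1.45 in the mutants, so the balance of these 2 receptors overlapped between genotypes. Epha3 and Epha7 together gave 45.4%, 46.5% and 50.3% of the summed FPKM of the 9 EphA genes in the controls and 57.8%, 59.1% and 61.1% in the mutants. The share of Epha4 was 51.2%, 43.7% and 44.4% in the controls and 38.0%, 34.0% and 33.8% in the mutants. Epha4 alone thus outweighed Epha3 and Epha7 together in the litter 1 control and in no mutant.

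**Figure D2:**
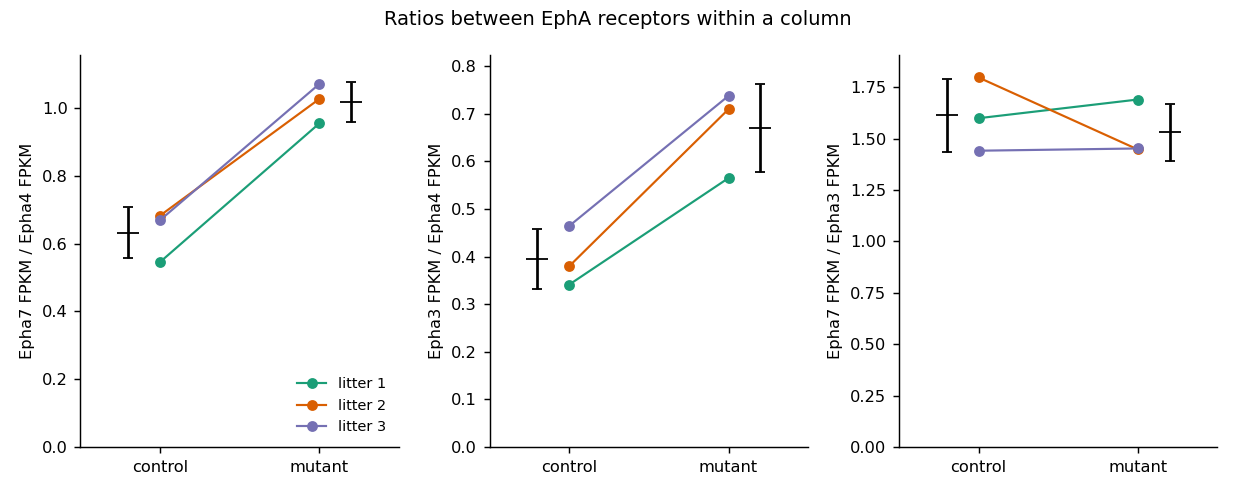
Ratio of FPKM between pairs of EphA receptors in each column, on axes from 0. Points are columns, lines join a litter, and black bars are means with SD (n = 3). Epha7 and Epha3 relative to Epha4 were higher in each mutant than in each control, from 0.633 to 1.02 and from 0.395 to 0.671 on average, while Epha7 relative to Epha3 overlapped.

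Of the EphB members, Ephb3 was lower in the mutant of each litter and Ephb2 had no shared direction. Ephb2 encodes a receptor of ephrin-B proteins and is in the deposited list. It was at 21.02, 16.1 and 21.6 FPKM in the controls and at 18.1, 22.7 and 22.5 FPKM in the mutants, lower in the mutant of litter 1 and higher in those of litters 2 and 3. Its change was 0.11 (SE 0.17) in log2(FPKM + 1) with a limma p of 0.558. Ephb3, which also binds ephrin-B proteins, was at 47.7, 62.8 and 50.7 FPKM in the controls and at 36.4, 51.4 and 43.5 FPKM in the mutants. Each mutant was below its own control, at 0.763, 0.819 and 0.857 times its level, but the groups overlapped. The change was -0.29 (SE 0.18) in log2(FPKM + 1), with a limma p of 0.156. Blocking on litter gave 0.0274 (limma adjusted p = 0.385).

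Of the ligands of EphA receptors, Efna5 encodes an ephrin that repels EphA4-bearing axons. It was at 10.9, 37.2 and 27.1 FPKM in the controls and at 12.7, 34.0 and 34.3 FPKM in the mutants. Both litter 1 columns were low, and the genotypes overlapped (limma adjusted p = 1.00). Litter 1, low in this ligand, was the litter high in Epha3, Epha4 and Epha7. The ligand gene Efna2 was at 31.4, 49.5 and 36.98 FPKM in the controls and at 21.5, 40.8 and 39.6 FPKM in the mutants, lower in litters 1 and 2 and higher in litter 3 (limma adjusted p = 1.00). Efna1, known from vessels and epithelia, was the lowest member at 3.59, 8.17 and 3.48 FPKM in the controls and 4.84, 6.79 and 6.28 FPKM in the mutants. It was higher in the mutants of litters 1 and 3 and lower in that of litter 2 (limma adjusted p = 1.00).

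Efnb2 encodes a transmembrane ephrin of arteries and mesenchyme. It was at 38.0, 54.6 and 73.2 FPKM in the controls and at 43.1, 88.8 and 86.3 FPKM in the mutants. Each mutant exceeded its control, by 1.13, 1.63 and 1.18 times, but the groups overlapped widely. The change was 0.37 (SE 0.35) in log2(FPKM + 1), with a limma p of 0.334. Blocking on litter gave 0.0307 (limma adjusted p = 0.389). The 12 endothelial markers summed to 35.8 to 48.1 FPKM in the controls and 27.8 to 38.8 FPKM in the mutants, with none at 0. The sum was lower in the mutant than in the control in litters 1 and 2 (27.8 against 35.8 and 35.4 against 48.1 FPKM). In litter 1 the largest falls were those of Egfl7 (6.18 against 10.13 FPKM) and Erg. Pecam1 (1.07 against 0.648 FPKM), Cdh5, Tie1 and Sox17 were higher in that mutant, and the other markers lower. In litter 2 only Egfl7 was higher in the mutant. The sum was higher in the mutant of litter 3 (38.8 against 36.4 FPKM). There Egfl7, Ramp2, Erg and Tek were higher in the mutant and the other markers lower, among them Cldn5 (0.640 against 1.87 FPKM). Of 7 tested endothelial markers, 1 was at an unadjusted limma p under 0.05, lower, beside 1.36% of all rows. Groups lay apart for 2, both lower, beside 5.03% of rows. Efnb2 was higher in the mutant of each litter, and the part of endothelium in its values was not tested. Efnb1, an X-linked ephrin gene needed for normal skeletal patterning, was at 69.4, 72.1 and 67.2 FPKM in the controls and at 51.2, 72.6 and 68.3 FPKM in the mutants. Only the litter 1 mutant stood apart, below all other columns (limma adjusted p = 1.00). Y-linked Eif2s3y was at 14.4 to 23.9 FPKM in 5 columns and listed at 0 in the litter 2 mutant, where Efnb1 was at 72.6 FPKM beside 72.1 FPKM in its control. Sex-linked Xist was at 12.1, 34.6 and 73.0 FPKM in the controls and at 36.8, 177.5 and 68.4 FPKM in the mutants. Columns with Eif2s3y thus also held Xist, and the 2 litter 2 columns are not a plain contrast of sexes.

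In the controls, mean levels ran from Epha4 (77.9 FPKM) through Efnb1 (69.6), Efnb2 (55.3), Ephb3 (53.7), Epha7 (47.3), Efna2 (39.3), Epha3 (29.8), Efna5 (25.1) and Ephb2 (19.6) to Efna1 (5.08). The place of Epha4 came from the litter 1 column, since in litters 2 and 3 it lay below Efnb1 and Efnb2. Each neighbouring pair in that order overlapped over the 3 control columns except Ephb2 and Efna1. Over the 10 members, which all passed the filter on low values, 1 (Epha3, higher) was at an unadjusted limma p under 0.05, where 3.57% of all tested rows were, 2.21% higher and 1.36% lower. With litter as a block 4 members were, against 11.6% of rows. Of these, 3 were higher (Epha3, Epha7 and Efnb2), against 5.34% of rows, and 1 was lower (Ephb3), against 6.29%. Groups did not overlap for 1 member, Epha3, against 9.25% of rows, 4.22% higher and 5.03% lower. The direction was shared by all 3 litters for 4 members, 3 higher and 1 lower, close to the 38.0% of all rows (15.7% higher and 22.3% lower). The median change of the members was 0.12 in log2(FPKM + 1), against -0.040 over all tested rows. The 11 tested limb mesenchyme markers had a median change of 0.15, with 9 positive and 2 negative. Among these markers 3 were higher and 2 lower in all 3 litters. A positive median was thus not particular to the members. Without the litter 2 pair, limma with litter as a block called 534 rows, or 4.34%, among them Epha3 (0.54, adjusted p = 0.00713), Epha7 (0.59, adjusted p = 0.00405) and Efna1 (0.52, adjusted p = 0.0135). Over the alternatives the adjusted limma p ran from 0.00713 to 1.00 for Epha3, from 0.00405 to 1.00 for Epha7 and from 0.0135 to 1.00 for Efna1. That fit rests on 2 litters, and with the same block without the pair of litter 1 or of litter 3 these genes were not called.

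Among the 12 other family genes, Epha5 showed the same direction as Epha3 and Epha7 at a far lower level. Epha5, a receptor best known from neurons and also in the deposited list, was at 2.28, 0.825 and 1.70 FPKM in the controls and at 4.68, 3.997 and 3.46 FPKM in the mutants. Each mutant column was above each control column. The change was 0.99 (SE 0.25) in log2(FPKM + 1), with a limma p of 0.00566 (adjusted p = 0.859). Blocking on litter gave 0.00109 (limma adjusted p = 0.116). The litter 2 control was under 1 FPKM, so Epha5 passed the filter on low values only with its mutant columns. Epha6, a further relative of this receptor group, was at 1.36, 0.190 and 0.425 FPKM in the controls and at 3.32, 2.20 and 1.00 FPKM in the mutants, higher in 3 of 3 litters (limma adjusted p = 1.00, or 0.197 with the litter block). These 4 EphA genes were grouped after their values were seen, so no test of the group was made.

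Ephb1 encodes the receptor that guides medial motor axons away from ephrin-B. It was at 8.67, 13.9 and 13.1 FPKM in the controls and at 4.86, 9.66 and 9.001 FPKM in the mutants, lower in 3 of 3 litters with overlap between groups. The change was -0.57 (SE 0.29) in log2(FPKM + 1), with a limma p of 0.0923 (adjusted p = 1.00). Blocking on litter gave 0.00184 (limma adjusted p = 0.150). Without the litter 2 pair, limma with the block called Epha5, Epha6 and Ephb1 as well (adjusted p = 0.000197, 0.00370 and 0.00124). The ephrin gene Efna4 was at 41.5, 42.1 and 36.0 FPKM in the controls and at 28.5, 32.6 and 35.7 FPKM in the mutants, without overlap, though litter 3 differed by only 0.992 times (limma adjusted p = 1.00). Ephb4, a vein receptor that mesenchyme also makes, averaged 89.6 ± 2.07 FPKM in the controls, the highest of the family, and 81.0 ± 12.9 FPKM in the mutants (SD, n = 3). Efnb3, Efna3 and Ephb6 averaged 52.1, 21.6 and 8.72 FPKM in the controls and 46.4, 19.5 and 9.51 FPKM in the mutants, with mixed directions. Epha1 and Epha2 were low, at 3.49 and 2.12 FPKM in the controls and 2.62 and 1.38 FPKM in the mutants, lower in 3 of 3 litters each. Epha8 and Epha10 averaged 0.844 and 0.126 FPKM in the controls and did not enter the test. Epha8 was lower in the mutant of each litter, at 0.915, 0.622 and 0.794 times its control, and reached 1 FPKM in only 1 column. Like Epha5, Epha7 and Ephb2, it is in the deposited list, which thus holds 4 of the 22 family genes among its 1352 symbols. Whether 4 is more than the list would hold by its size was not tested. Of the 20 family genes tested, 5 were higher and 5 lower in all 3 litters, beside 15.7% and 22.3% of all rows. Those at an unadjusted limma p under 0.05 were Epha3, Epha5 and Epha6, all higher, beside 2.21% of all rows. Epha5 and Epha6 reached 1 FPKM in 2 and 1 control columns, so both entered the test through their mutant columns and their count is no support for a direction.

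**Figure D3:**
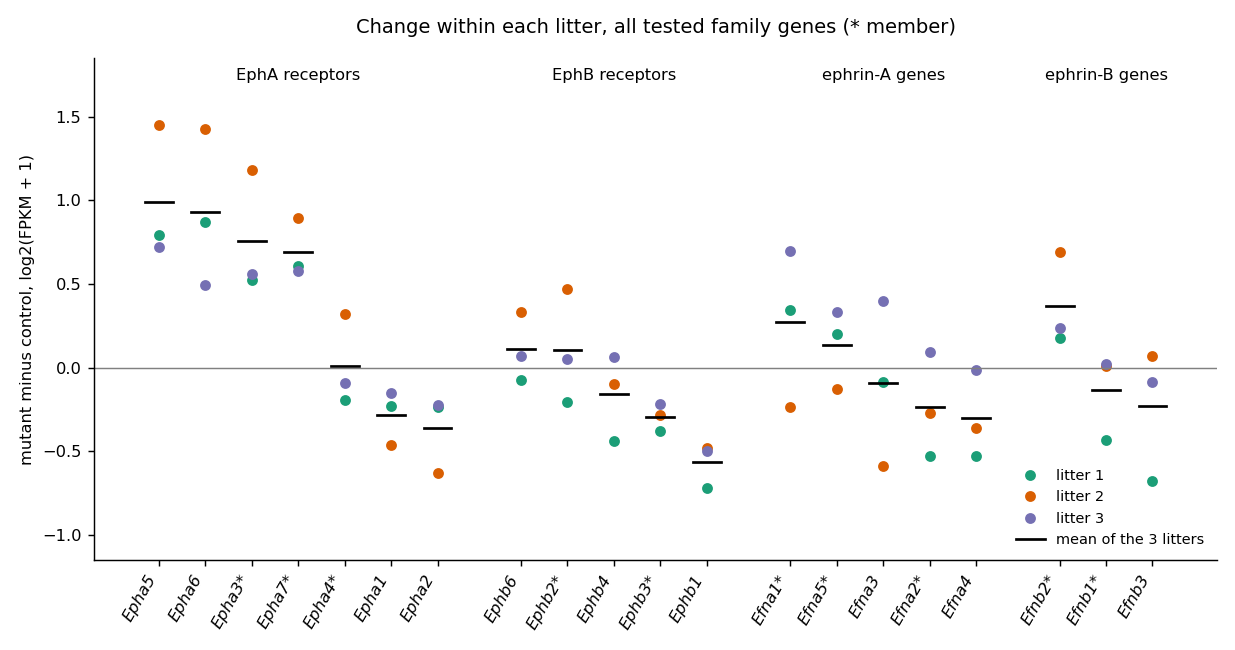
Mutant minus control in log2(FPKM + 1) within each litter for the 20 tested Eph and ephrin genes, by class. Coloured points are litters, black lines are means of 3 litters, and asterisks mark the 10 members. Epha5, Epha6, Epha3 and Epha7 lie above 0 in each litter, Ephb1 and Ephb3 below 0 in each, and most ephrin genes cross 0.

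Summed by class, the 9 EphA genes reached 239.9, 112.5 and 139.1 FPKM in the controls of litters 1, 2 and 3 and 282.1, 181.3 and 171.7 FPKM in the mutants, higher in each litter. The 5 EphB genes summed to 178.3, 188.7 and 183.4 FPKM in the controls and 135.6, 176.4 and 177.7 FPKM in the mutants, without overlap, the highest mutant lying just under the lowest control. Two-sided exact permutation tests, which do not use the litters, gave p = 0.4 for EphA and p = 0.1 for EphB, the latter the smallest that 3 columns against 3 can give. Ephrin-A and ephrin-B sums overlapped, with the 5 ephrin-A genes at 102.5 to 169.5 FPKM in the controls and 81.6 to 138.9 FPKM in the mutants. The 3 ephrin-B genes were at 149.0 to 202.2 FPKM and 119.9 to 217.1 FPKM.

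**Figure D4:**
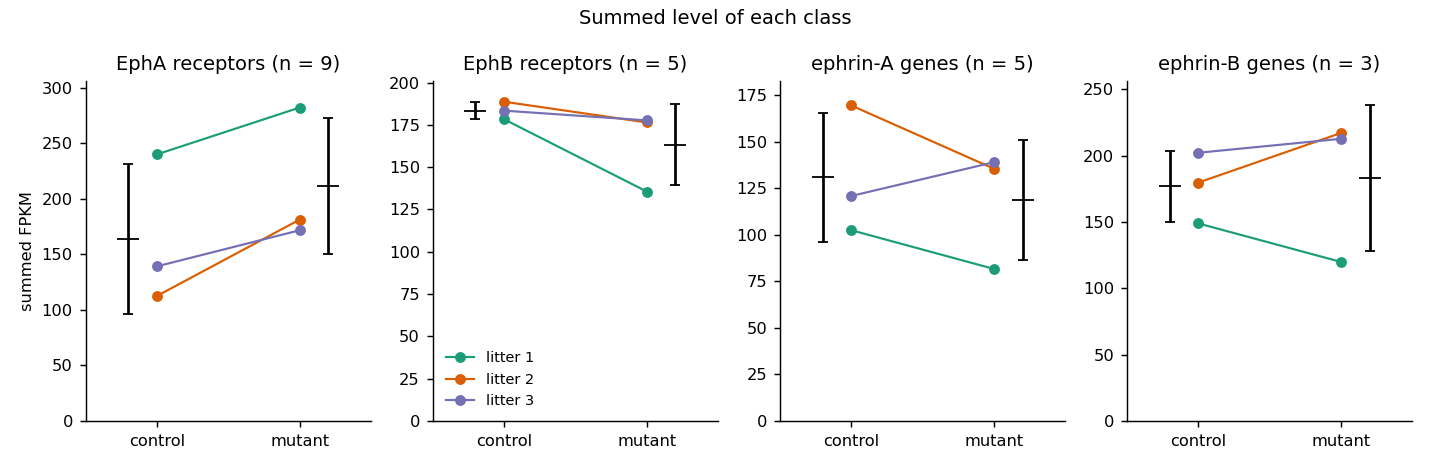
Summed FPKM of the EphA, EphB, ephrin-A and ephrin-B genes in each column, on axes from 0. Points are columns, lines join a litter, and black bars are means with SD (n = 3). EphA sums were higher in each mutant than in its control, from 163.9 to 211.7 FPKM on average, and EphB sums were lower in each, from 183.5 to 163.2 FPKM.

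Genes of proteins that pass on Eph or ephrin signals gave 1 of 27 tested genes at an unadjusted limma p under 0.05, close to the 3.57% of all rows, and 0 past the adjusted threshold. The list has 30 genes, among them adaptors, kinases, exchange factors and the ephrin-cleaving protease Adam10, and its median change was 0.074 in log2(FPKM + 1). Grip1, a scaffold that binds the tails of EphB receptors and ephrin-B proteins, was at 5.12, 4.43 and 4.77 FPKM in the controls and at 6.40, 7.06 and 6.01 FPKM in the mutants, without overlap (limma adjusted p = 1.00). Tiam1, an exchange factor for Rac, was at 28.0, 26.5 and 22.4 FPKM in the controls and at 21.3, 20.5 and 20.9 FPKM in the mutants, also without overlap (limma adjusted p = 1.00). Abl2, a kinase of the cytoskeleton, was at 6.55, 5.29 and 7.25 FPKM in the controls and at 7.30, 8.54 and 8.02 FPKM in the mutants, without overlap (limma adjusted p = 1.00). Groups lay apart for 4 of the 27 genes, 3 higher and 1 lower, beside 4.22% and 5.03% of all rows.

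Of the limb factors known to act on Eph genes, Hoxd13 was at 3.45, 9.26 and 10.5 FPKM in the controls and at 4.61, 11.8 and 12.7 FPKM in the mutants. It was higher in 3 of 3 litters (limma adjusted p = 1.00, or 0.388 with the litter block), and litter 1 was lowest in both groups, where Epha7 was highest. Hoxa13 stayed at 0.519 to 0.888 FPKM in the controls and 0.793 to 1.61 FPKM in the mutants and did not enter the test. Lmx1b, the factor of dorsal mesenchyme on which Epha4 patterning depends, was at 29.6, 36.7 and 43.4 FPKM in the controls and at 28.4, 47.0 and 51.1 FPKM in the mutants (limma adjusted p = 1.00).

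Neurons and glia also make EphA receptors, so the 13 markers of nerve and glia were set beside them. Their summed level was 34.4 to 86.6 FPKM in the controls and 41.9 to 105.8 FPKM in the mutants, with none at 0. From control to mutant the sum went from 52.5 to 105.8 FPKM in litter 1, from 86.6 to 54.6 in litter 2 and from 34.4 to 41.9 in litter 3. In litter 2 the sum was thus lower in the mutant, while Epha3, Epha5 and Epha7 had their largest ratios there. Of 7 chondrogenic markers, with none at 0, 2 were at an unadjusted limma p under 0.05 (2.21% of all rows were, in that direction) and 0 passed the adjusted threshold. These were Sox5, at 5.19, 6.33 and 6.86 FPKM in the controls and 10.13, 12.7 and 10.2 FPKM in the mutants, and Sox6, at 6.98 to 8.10 and 9.60 to 11.3 FPKM, both cofactors of Sox9 in cartilage. Both lay apart between groups, as 4.22% of all rows did in that direction. Of the 7 markers, these 2 were higher in 3 of 3 litters, 1 was lower in each and 4 were mixed. The lower one was Matn1, at 40.9, 43.9 and 64.6 FPKM in the controls and 24.0, 43.0 and 39.9 FPKM in the mutants. Sox9 was lower in the mutant of litter 2 (95.8 against 111.6 FPKM) and higher in those of litters 1 and 3. The chondrogenic sum, mostly Col2a1, was 653.5 to 737.4 FPKM in the controls and 589.6 to 991.6 FPKM in the mutants, lower in the mutant of litter 1 and higher in those of litters 2 and 3. Muscle markers, 11 in the table, summed to 30.2 to 84.6 FPKM in the controls and 51.5 to 72.7 FPKM in the mutants, higher in the mutant in litters 1 and 3 and lower in litter 2 (51.5 against 84.6 FPKM). The 10 markers of surface ectoderm summed to 17.0 to 44.5 FPKM in the controls and 14.7 to 22.2 FPKM in the mutants, and the sum was lower in the mutant of each litter (14.7 against 17.0, 22.2 against 44.5 and 16.7 against 20.7 FPKM). All 6 tested ectoderm markers had a negative change over the 3 litters and 0 passed the adjusted threshold. Their median change was 0.32, -0.80 and -0.040 in log2(FPKM + 1) in litters 1, 2 and 3. In litters 1 and 3 the largest fall was that of Fgf8, from 6.12 to 2.52 and from 10.2 to 5.95 FPKM. The lower sum thus did not hold for each marker in each litter. Leaving out the litter 2 control column, the highest in ectoderm markers, gave a change of 0.47 for Epha3 and 0.48 for Epha7 in log2(FPKM + 1). Among the controls that column also had the highest sums of endothelial, nerve and glia, muscle and red cell markers. Leaving it out therefore cannot single out ectoderm. The 5 red cell markers in the table summed to 488.7, 591.4 and 327.5 FPKM in the controls of litters 1, 2 and 3. They summed to 711.7, 381.8 and 228.7 FPKM in the mutants, higher in litter 1 and lower in litters 2 and 3. Most of each sum was Hbb-y, at 182.3 to 567.4 FPKM. The sum of 7 leukocyte markers was lower in the mutants of litters 1 and 3. It was higher in that of litter 2 (21.6 against 12.6 FPKM). The part of these cell types in the results was not tested. The mutants of litters 1, 2 and 3, at 16.7, 18.3 and 96.9 FPKM of Shox2, had 1.45, 2.34 and 1.49 times the control level of Epha3. Whether the remaining Shox2 level bears on these genes was not tested.

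By Pearson correlation of log2(FPKM + 1) over the 6 columns, the genes most like Epha3 among the 9241 other rows that average at least 5 FPKM were Arhgap18 (r = 0.997), Tenm3, a teneurin adhesion protein (r = 0.994), and Pcdh7, a protocadherin (r = 0.994). Epha7 was most like the kinase gene Dyrk1a (r = 0.993), the splicing factor gene Mbnl2 (r = 0.991) and the kinase gene Prkg1 (r = 0.9905). Epha3 and Epha7 correlated with each other at 0.974, and Epha7 ranked 21 in likeness to Epha3. Ephb3 ran opposite to them, at -0.905 with Epha3 and -0.908 with Epha7. The 6 columns share litters, and litter 1 stands apart, so these values describe the columns and carry no test.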

How the data were processed

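Sequencing of total RNA from sorted cells was deposited as 1 table of normalized values. Per the submitters' processing notes TopHat and Cuffdiff were used on mm9, and per the file headers the values were normalized by Cuffdiff's geometric method, stated for each litter separately. The deposited values were taken as FPKM, a word the header does not hold. Versions, annotation, strand and depth, and whether the litter 1 mutant column holds 1 or both samples, are not stated in these sources. The second deposited file holds 1352 symbols without values.

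The 12314 rows that reached 1 FPKM in at least 3 of the 6 columns were fitted with limma 3.58.1 (R 4.3.3, intensity trend) on log2(FPKM + 1), which understates changes of low genes, with Benjamini-Hochberg adjustment at 0.05. The fit was tested on simulated data. A second fit had litter as a block. The descriptions of the samples say that a number marks a litter, and deviations from group means correlated at 0.87, 0.57 and 0.77 within litters 1, 2 and 3, against at most 0.17 across litters. Where nothing names separate animals, p-values measure the spread between these columns. Members and lists were chosen with earlier results of these data known. The text names all members and other family genes, the 3 signalling partners with the smallest p, Lmx1b, Hoxa13, Hoxd13 and, for the 2 members with the smallest p, the 3 most similar rows. In GENCODE M21 no exon of a member overlaps another gene, while Epha1, Epha6, Epha10, Ephb1, Ephb4, Efna3 and Efna4 overlap an antisense gene, whose reads cannot be told apart here. Alternatives were a pseudocount of 0.1, no filter, a mean of 5 FPKM or more, quantile normalization, median centring, array weights, the litter block, and leaving out each column or litter pair. Protein sequences were not used here.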

Additional observations from a re-analysis of the deposited data

How the results depend on the processing

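Results were recomputed under 16 alternatives. limma called 0 rows except with array weights (15) and when columns or pairs were left out (0 to 534, with 1 each without control 3 or mutant 3, and, with the block, 36 without the pair of litter 3 and 534 without that of litter 2). Member genes at an unadjusted p under 0.05 numbered 1, against 0 with no filter, quantile normalization or median centring, 3 with array weights, 4 with litter as a replicate block and 0 to 5 when columns or pairs were left out. There were 0 without control 3, mutant 2 or mutant 3, 2 without control 1, and, with the block, 3 without the pair of litter 1, 5 without that of litter 2 and 2 without that of litter 3. Members without overlap numbered 1, against 0 with quantile normalization or median centring and 1 to 4 when columns or pairs were left out. The member median of 0.12 ran from 0.060 to 0.30 when columns or pairs were left out, the highest without mutant 1. The litter block changed no call at the adjusted threshold.

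Of 20 family genes, 11 kept their direction in all alternatives run, among them Epha3 (0.47 to 1.03), Epha7 (0.46 to 0.97), Ephb3 (-0.41 to -0.14), Efnb2 (0.13 to 0.70), Efna1 (0.056 to 0.64), Epha5 and Ephb1. Array weights reversed Epha4 (-0.053), Efna2 (0.047), Efnb1 (0.025) and Efna3 (0.25). Leaving out columns or pairs gave changes of -0.27 to 0.39 for Epha4, -0.076 to 0.26 for Ephb2, -0.40 to 0.057 for Efna2, -0.35 to 0.59 for Efna5 and -0.23 to 0.018 for Efnb1. It gave -0.50 to 0.0039 for Epha1, -0.0032 to 0.20 for Ephb6, -0.34 to 0.23 for Efna3, -0.43 to 0.14 for Efnb3 and -0.13 to 0.71 for Hoxd13. The causes were not tested. The depth is unknown, so no counting error can be given, and 3 columns per group limit what can be called.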
